A study of Rattus norvegicus with 6 samples.

Results

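The genes described here encode the proteins that coat lipid droplets and that make or break down the neutral lipids inside them: the perilipins Plin2, Plin3 and Plin5, the lipases Pnpla2, Lipe and Mgll with the co-activator Abhd5, and the cholesteryl ester enzymes Nceh1, Soat1 and Soat2. They were chosen by name, and their probes were found through the transcript accession that the scanner files give for each probe. Of the 10 genes, 9 had a probe and 8 were measured, among 31637 genes and unnamed transcripts tested. Plin3 had no probe matched by accession, and the single probe of Soat2 was not well above background on any of the 6 arrays. The 8 measured genes had 13 usable probes.

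RNA of the renal cortex was hybridised to 1-colour Agilent arrays, 1 per animal. The 3 treated animals were male Sprague-Dawley rats given 200 mg/kg/day of tricresyl phosphate over 4 weeks, and the 3 control animals were male Sprague-Dawley rats given the vehicle corn oil for 4 weeks. All animals were bought at 5 weeks of age and kept on a basal diet. Tricresyl phosphate, an organophosphate ester, serves as a plasticiser and a flame retardant, and the comparison asks how its administration alters renal cortical transcripts.

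Cells keep surplus fatty acids and cholesterol as triacylglycerols and cholesteryl esters in lipid droplets, under a coat of perilipins. Triacylglycerols are taken apart in steps by Pnpla2, Lipe and Mgll, while Soat enzymes form cholesteryl esters and Lipe and Nceh1 hydrolyse them. In the adrenal cortex and ovary of rats, tricresyl phosphate is known to inhibit the neutral hydrolysis of cholesteryl esters, after which droplets accumulate. The arrays measured transcripts and not enzyme activity, lipid content or droplets.

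None of the 8 measured genes passed the test. Mgll, which encodes monoacylglycerol lipase, was the only one whose 3 tricresyl phosphate animals all lay on one side of the 3 corn oil animals, and its level was 0.85-fold that of corn oil. By the brightest probe of each gene, Soat1 had the largest positive difference and Lipe the next largest, with overlapping animals. The other probes of Nceh1 and Pnpla2, described below, had larger positive differences. In the limma comparison with Benjamini-Hochberg adjustment over all 31637 genes, 0 of the 8 rose and 0 fell at an adjusted p under 0.05, against 0% of all genes. The lowest adjusted p among the 8 was 0.811. At an unadjusted limma p under 0.05 there was 1 of the 8, Mgll, which was lower, against 5.49% of all genes, 1.63% higher and 3.86% lower. Groups that did not overlap were seen in 1 of the 8, again Mgll, against 11.8% of all genes, 3.85% higher and 7.95% lower. Levels below are log2 values of the processed signal relative to the array's 75th percentile, and differences are tricresyl phosphate minus corn oil on the same log2 scale. The median difference of the 8 was 0.08, beside −0.04 over all genes tested. Where a gene has several probes, the one with the highest mean signal stands for it. Cortex is a mixed tissue, so fewer cells of a type and less RNA per cell cannot be told apart in any of these levels.

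**Figure D1:**
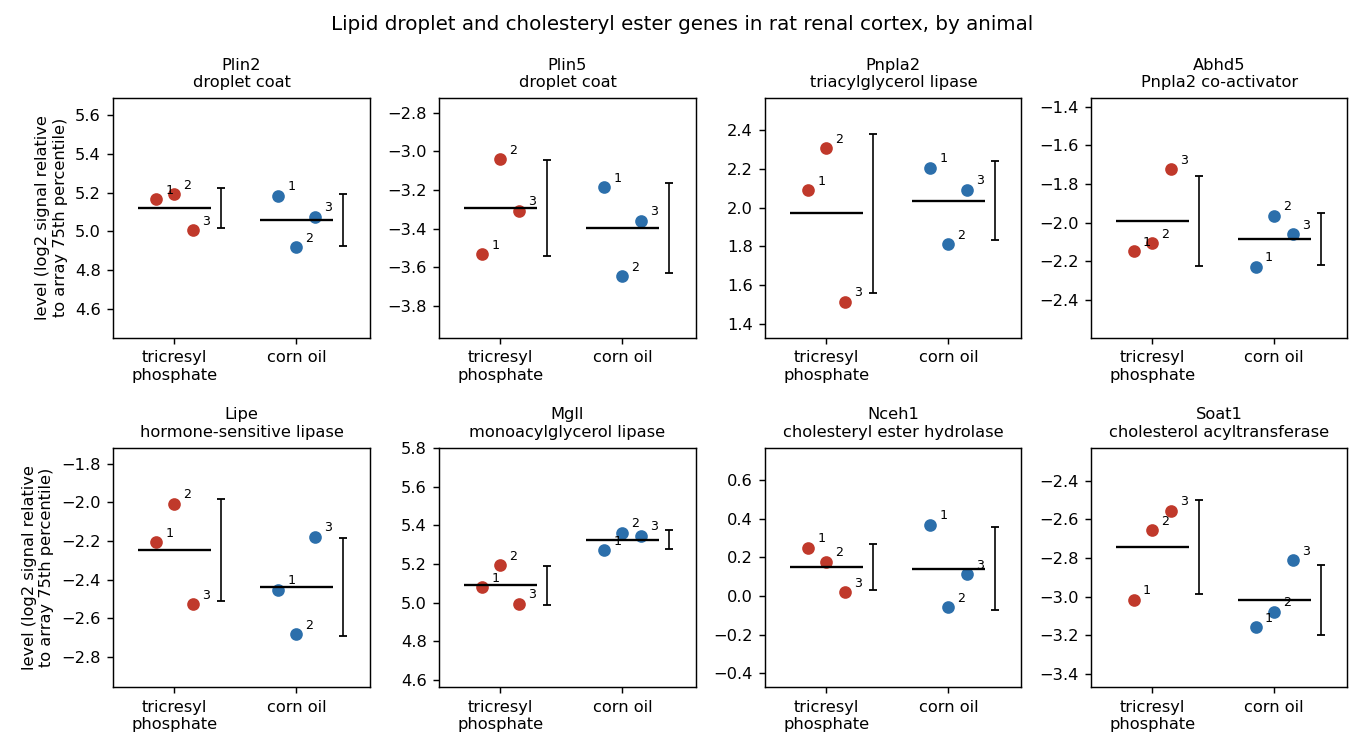
Level of each measured gene (vertical axes, log2 signal relative to the array's 75th percentile, all axes spanning the same height) in the 3 tricresyl phosphate and 3 corn oil animals. Points are animals numbered by replicate, horizontal lines are group means and the bars beside them are SD. Only in the Mgll panel do the points of the groups not overlap, between 4.99 and 5.19 with tricresyl phosphate and between 5.27 and 5.36 with corn oil.

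Mgll and Plin2 are the genes whose animals separated by group under one or another way of scaling the arrays, described below, and the 250 bases before their transcription starts are given for that reason. The sequences are RefSeq's on build GRCr8, which lists 1 start for Mgll and 2 for Plin2. Capitals mark 3 motifs, searched on both strands: CCAAT, the GC box GGGCGG and the nuclear receptor half-site AGGTCA.
Mgll, chr4:122749186-122749435, plus strand: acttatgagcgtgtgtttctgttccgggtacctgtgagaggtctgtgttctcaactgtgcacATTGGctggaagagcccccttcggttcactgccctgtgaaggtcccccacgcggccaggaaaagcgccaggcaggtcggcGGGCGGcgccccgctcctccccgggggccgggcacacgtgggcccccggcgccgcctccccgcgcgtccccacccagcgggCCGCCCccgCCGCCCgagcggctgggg
Plin2, start 1, chr5:106228538-106228787, minus strand: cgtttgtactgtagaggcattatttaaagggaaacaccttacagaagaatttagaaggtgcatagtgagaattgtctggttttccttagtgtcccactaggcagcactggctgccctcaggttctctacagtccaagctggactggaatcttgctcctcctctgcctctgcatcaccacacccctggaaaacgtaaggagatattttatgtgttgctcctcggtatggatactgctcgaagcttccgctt
Plin2, start 2, chr5:106229019-106229268, minus strand: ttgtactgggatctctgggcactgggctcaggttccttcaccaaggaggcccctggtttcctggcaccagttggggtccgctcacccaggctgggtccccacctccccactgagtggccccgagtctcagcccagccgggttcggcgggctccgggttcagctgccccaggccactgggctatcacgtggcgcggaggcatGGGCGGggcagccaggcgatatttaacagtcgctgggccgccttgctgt

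The Mgll window held 3 GC boxes and 1 CCAAT. The Plin2 windows held 1 GC box, before start 2, and no match to the other motifs. Of the 10 genes, 8 had a window in the table, 9 windows in all. These are not the 8 measured genes: Lipe and Soat2 had no window, and Plin3, which had no matched probe, is included. GGGCGG stood in 7 of the 9, against 30.5% of the 33469 rat windows of this length. CCAAT stood in 5 of the 9, against 34% of all windows. AGGTCA stood in 2 of the 9, those of Plin5 and Abhd5, against 14.1% of all windows. These matches describe letters only, and the arrays hold no measurement of binding at them.

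Transcripts of the droplet coat overlapped between the groups. Plin2 encodes the perilipin that coats droplets in most cells outside fat. Its levels were 5.16, 5.19 and 5.004 in tricresyl phosphate replicates 1, 2 and 3, against 5.18, 4.92 and 5.08 in corn oil replicates 1, 2 and 3. Corn oil replicates 1 and 3 stood among the treated animals, while corn oil replicate 2 was the lowest of all. The difference was 0.06 ± 0.11 (SE), with a 95% interval from −0.20 to 0.32 and an adjusted limma p of 0.915. Without corn oil replicate 2 the difference was −0.01.

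Plin5 encodes the perilipin of oxidative tissues, which brings droplets and mitochondria together. It was at −3.53, −3.04 and −3.31 in tricresyl phosphate replicates 1, 2 and 3, and at −3.19, −3.65 and −3.36 in corn oil replicates 1, 2 and 3. The animals of both groups were interleaved. The difference was 0.10 ± 0.17 (SE), with a 95% interval from −0.32 to 0.53 and an adjusted limma p of 0.912. It was −0.02 without tricresyl phosphate replicate 2 and −0.02 without corn oil replicate 2.

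The lipases that open triacylglycerol breakdown did not pass, and the probes of Pnpla2 did not share a direction. Pnpla2 encodes adipose triglyceride lipase, which removes the first fatty acid. Its brighter probe was at 2.09, 2.31 and 1.51 in tricresyl phosphate replicates 1, 2 and 3, against 2.21, 1.81 and 2.09 in corn oil replicates 1, 2 and 3. Tricresyl phosphate replicate 3 was the lowest animal and tricresyl phosphate replicate 2 the highest, so the treated group spanned the whole range. The difference was −0.07 ± 0.23 (SE) at an adjusted limma p of 0.959. It was 0.16 without tricresyl phosphate replicate 3 and 0.02 without corn oil replicate 1. The other Pnpla2 probe was at 1.51, 1.94 and 1.33 with tricresyl phosphate, and at 1.27, 1.09 and 1.505 with corn oil. Here the 2 lowest animals were both corn oil animals, and the difference was 0.30 ± 0.19 (SE) at an adjusted limma p of 0.816 in the comparison of single probes. No single probe of any gene passed in that comparison, 0% of 43099.

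Abhd5 encodes the protein that activates Pnpla2 at the droplet surface. Its levels were −2.15, −2.11 and −1.72 in tricresyl phosphate replicates 1, 2 and 3, and −2.23, −1.96 and −2.06 in corn oil replicates 1, 2 and 3. Tricresyl phosphate replicate 3 stood above the other 5 animals, which were interleaved. The difference was 0.09 ± 0.15 (SE) at an adjusted limma p of 0.906, and −0.04 without tricresyl phosphate replicate 3.

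Lipe encodes hormone-sensitive lipase, which acts on diacylglycerols and, as the neutral cholesteryl ester hydrolase of steroid-forming tissue, on cholesteryl esters. Its level was −2.21, −2.01 and −2.53 in tricresyl phosphate replicates 1, 2 and 3, against −2.45, −2.68 and −2.18 in corn oil replicates 1, 2 and 3. The highest animal was treated and the lowest was a control, with the other 4 interleaved. The difference was 0.19 ± 0.19 (SE), with a 95% interval from −0.26 to 0.64 and an adjusted limma p of 0.848. All 4 probes of Lipe had positive differences, between 0.11 and 0.19, each with overlapping groups. Leaving out 1 animal at a time gave differences between 0.07 and 0.33.

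Mgll encodes monoacylglycerol lipase, which releases the last fatty acid from glycerol and also degrades the endocannabinoid 2-arachidonoylglycerol. It was at 5.08, 5.19 and 4.99 in tricresyl phosphate replicates 1, 2 and 3, and at 5.27, 5.36 and 5.34 in corn oil replicates 1, 2 and 3. Every treated animal lay below every control, and the gap between the nearest animals was smaller than the range of the treated group. The difference was −0.24 ± 0.09 (SE), 0.85-fold with a 95% interval from 0.73 to 0.99. The unadjusted limma p was 0.0386 and the adjusted limma p 0.811. Of all genes tested, 4.09% had a smaller p. Leaving out 1 animal at a time gave differences between −0.29 and −0.19.

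The Mgll and Plin2 results depended on how arrays were scaled to each other. When genes were ranked by mean level into 5 classes of equal size, both belonged to the brightest, where 76.0% of the genes had a negative difference and the median was −0.07. Under quantile normalization the Mgll log2 signal was 15.12, 15.34 and 15.16 with tricresyl phosphate and 15.23, 15.39 and 15.41 with corn oil, so the groups overlapped. The Mgll difference was then −0.14 ± 0.10 (SE) at an adjusted limma p of 0.845. The same scaling put Plin2 at 15.20, 15.34 and 15.17 with tricresyl phosphate and at 15.14, 14.96 and 15.14 with corn oil. All treated animals then lay above all controls, with a Plin2 difference of 0.16 ± 0.09 (SE) at an adjusted limma p of 0.832. Cyclic loess also separated Plin2 and not Mgll, normexp with quantile normalization separated neither, and scaling to the array median or the authors' value table separated Mgll and not Plin2. Neither gene passed under any of these scalings.

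**Figure D2:**
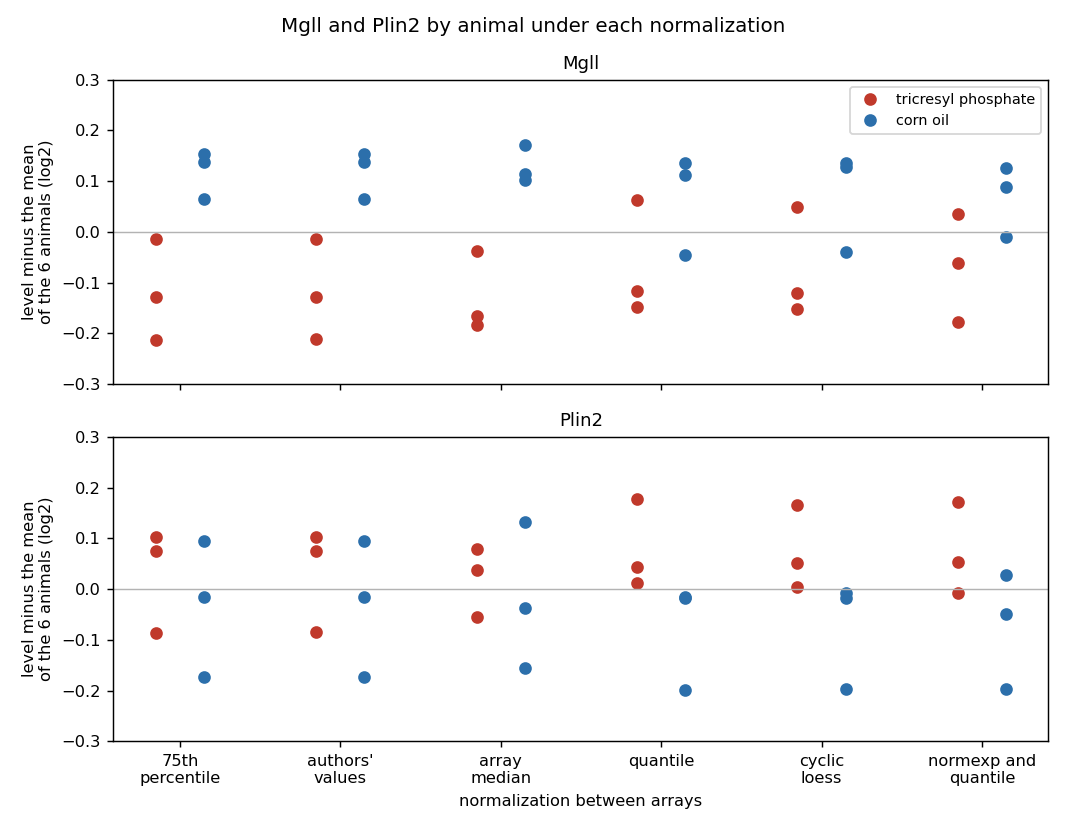
Level of Mgll (top) and Plin2 (bottom) in each animal minus the mean of the 6 animals (vertical axis, log2) under 6 normalizations between arrays (horizontal axis), with tricresyl phosphate animals to the left of corn oil animals. Mgll groups stand apart under the first 3 scalings, and Plin2 groups under quantile and cyclic loess normalization.

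The enzymes of the cholesteryl ester cycle did not pass. Nceh1 encodes neutral cholesterol ester hydrolase 1, an endoplasmic reticulum serine hydrolase known from macrophages. Its brighter probe was at 0.25, 0.18 and 0.02 in tricresyl phosphate replicates 1, 2 and 3, against 0.37, −0.06 and 0.11 in corn oil replicates 1, 2 and 3. The controls spanned the whole range of the treated animals. The difference was 0.01 ± 0.14 (SE), with a 95% interval from −0.32 to 0.34 and an adjusted limma p of 0.992, and its sign turned when any of 4 single animals was left out. Its other probe, at −2.90, −3.20 and −3.32 with tricresyl phosphate and −3.81, −3.74 and −3.05 with corn oil, had a difference of 0.40 ± 0.23 (SE) at an adjusted limma p of 0.816.

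Soat1 encodes the acyl-CoA:cholesterol acyltransferase found in most tissues, which forms cholesteryl esters for storage. It was at −3.02, −2.66 and −2.56 in tricresyl phosphate replicates 1, 2 and 3, and at −3.16, −3.08 and −2.81 in corn oil replicates 1, 2 and 3. The 2 highest animals were treated and the 2 lowest were controls, while tricresyl phosphate replicate 1 lay below corn oil replicate 3. The difference was 0.27 ± 0.16 (SE), 1.21-fold with a 95% interval from 0.92 to 1.58 and an adjusted limma p of 0.811. It stayed positive without each animal in turn, between 0.18 and 0.41. Soat2, the acyltransferase of intestine and liver, was on no array well above background, so no fold is given for it.

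**Figure D3:**
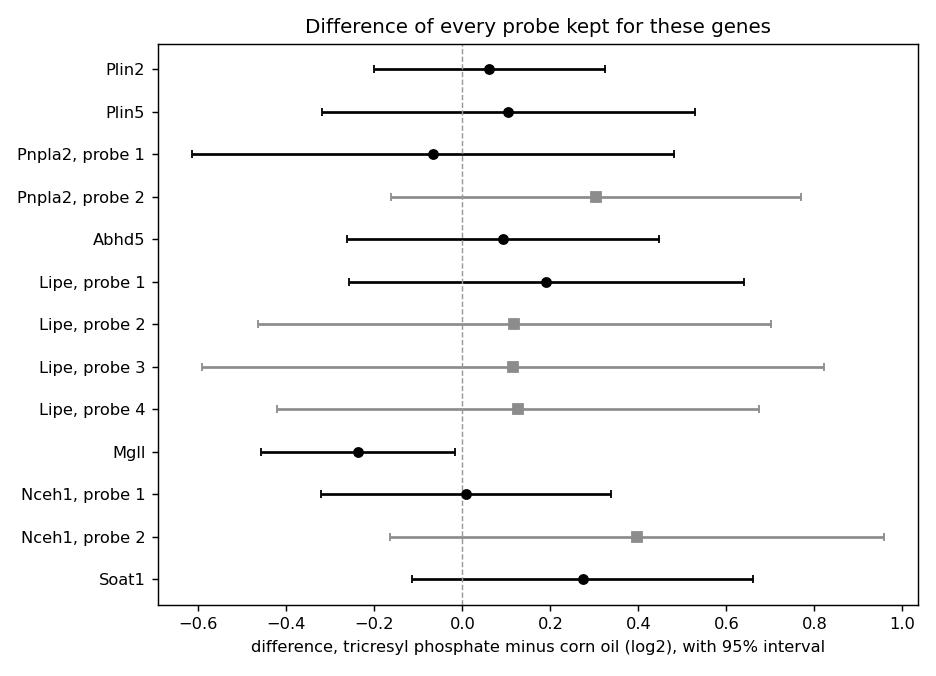
Difference between tricresyl phosphate and corn oil (horizontal axis, log2) with its 95% interval for each of the 13 usable probes, from the comparison of single probes. Black circles are the probe that stands for a gene and grey squares its other probes. The Mgll interval is the only one that does not include 0, and the Pnpla2 probes lie on opposite sides of it.

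Several of these genes varied more between animals than between groups. Lipe, Pnpla2, Plin2 and Nceh1 all had their 2 lowest levels in tricresyl phosphate replicate 3 and corn oil replicate 2, a pattern singled out after the values were seen. It held for all 4 probes of Lipe, and for 1 of 2 probes each of Pnpla2 and Nceh1. These animals were the 2 lowest in 8.66% of all genes tested without a missing value. The same 2 animals had the highest mean level of the hepatocyte markers. Alb, Ttr, Apoa1, Apoa2 and Ahsg were highest in these 2 animals, and Fga and Fgb were not. Fga was at 0.97 in tricresyl phosphate replicate 1 and 0.57 in replicate 3, and Fgb at 0.35 and 0.17. Alb, the plasma albumin made by liver, was at −0.11, −0.15 and 2.21 in tricresyl phosphate replicates 1, 2 and 3, against −2.47, 2.62 and −1.61 in corn oil replicates 1, 2 and 3. Over the 7 measured hepatocyte markers the mean level ranged from −1.63 to −0.41 with tricresyl phosphate and from −2.46 to −0.06 with corn oil, and Cps1, an enzyme of the hepatocyte urea cycle, was on no array well above background. The part of liver transcripts in this pattern was not tested. Without these 2 animals the differences of Lipe, Pnpla2, Plin2 and Nceh1 were 0.21, 0.05, 0.05 and −0.03, that of Mgll was −0.17, and none passed.

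**Figure D4:**
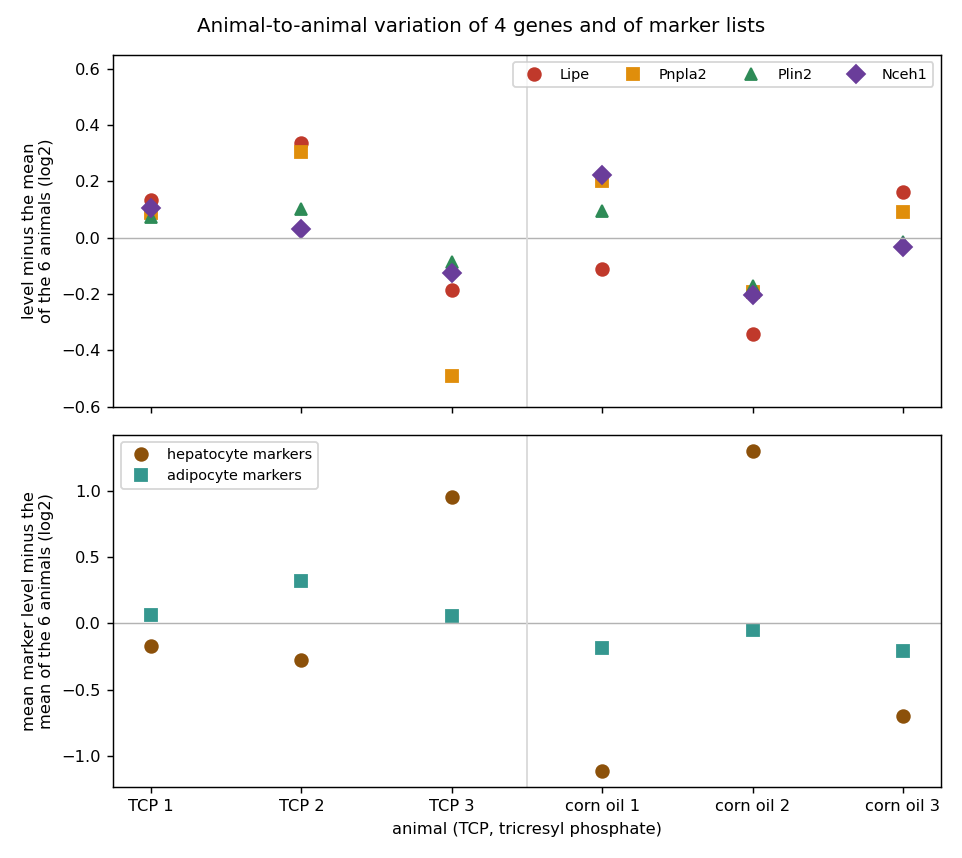
Top, levels of Lipe, Pnpla2, Plin2 and Nceh1 in each animal minus the mean of the 6 animals (vertical axis, log2). Bottom, mean level of 7 hepatocyte and 5 adipocyte markers on the same kind of axis. Tricresyl phosphate replicate 3 and corn oil replicate 2 are the lowest in the top panel and have the highest mean hepatocyte marker level.

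Markers of other cells that express droplet genes were read on the same arrays. All 6 proximal tubule markers, with mean levels from 7.07 to 7.19 with tricresyl phosphate and from 7.18 to 7.25 with corn oil, and all 8 markers of distal nephron and podocytes were measured in this renal cortex. For adipocytes, whose droplets hold Lipe and Pnpla2, 5 of 8 markers were measured. Lep was on no array well above background, Retn was so on 2 arrays, and Plin1 had no probe. Among the 5 measured, Adrb3 was well above background on only 2 arrays of each group. The mean level of the 5 ranged from −2.72 to −2.46 with tricresyl phosphate and from −2.98 to −2.82 with corn oil, while their summed linear level ranged from 1.54 to 1.57 with tricresyl phosphate and from 1.28 to 1.68 with corn oil. The treated animals lay above the controls in mean level and overlapped them in summed level. Without Fabp4 the mean of the other 4 was −2.53, −2.54 and −2.55 in tricresyl phosphate replicates 1, 2 and 3, against −2.60, −2.44 and −2.36 in corn oil replicates 1, 2 and 3, so the treated animals lay within the range of the controls. Of 8 adrenal cortex markers 3 were measured, Mrap, Cyp21a1 and Cyp11a1. Mrap was the brightest, with a mean of 2.00 with tricresyl phosphate and 2.10 with corn oil. Star, the cholesterol carrier of steroid synthesis, was on no array well above background. The mean level of the 3 measured ranged from −1.80 to −1.70 with tricresyl phosphate and from −1.997 to −1.52 with corn oil. The 6 measured macrophage markers had mean levels from 0.29 to 0.47 with tricresyl phosphate and from 0.43 to 0.55 with corn oil. Cd163 was on no array well above background. Only C1qa of the 6 had groups that did not overlap, against 11.8% of all genes. It was lower with tricresyl phosphate, by −0.28 ± 0.10 (SE), at an adjusted limma p of 0.811. The part of these cells in the levels of Lipe, Nceh1 and Soat1 was not tested.

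Genes that work beside the 10 were taken from lists by role, and no gene of any of these lists passed. Their medians are to be read beside the −0.04 of all genes tested. Their signs stand beside a share of negative differences of 50.6% to 76.0% across the 5 classes of mean level described above. Of 15 genes of the droplet coat and droplet growth 12 were measured, and of these 0 rose and 0 fell, 1 had a positive and 11 a negative difference, and the median was −0.11. An unadjusted limma p under 0.05 was reached by 1 of the 12, against 5.49% of all genes. Groups that did not overlap were seen in 1 of the 12, against 11.8% of all genes. Fitm1, which promotes droplet formation at the endoplasmic reticulum, was at 1.27, 1.495 and 1.39 with tricresyl phosphate and at 1.95, 1.514 and 1.83 with corn oil. Its groups did not overlap, although tricresyl phosphate replicate 2 and corn oil replicate 2 nearly met. The Fitm1 difference was −0.38 ± 0.14 (SE), with the other probe at −0.36 and an adjusted limma p of 0.811. Rab18, a GTPase of the droplet surface, and Cidec, which fuses droplets, differed by −0.41 ± 0.25 (SE) and −0.51 ± 0.33 (SE). Tricresyl phosphate replicate 1 stood below the others in Rab18, and without it the difference was −0.12. Corn oil replicate 2 stood above the others in Cidec, and without it the difference was −0.14.

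Of 14 genes that control lipolysis 13 were measured, and of these 0 rose and 0 fell, 12 had a negative difference and 1 a positive one, and the median was −0.12. An unadjusted limma p under 0.05 was reached by 3 of the 13, against 5.49% of all genes. Without overlap, the treated animals were higher in 1 of the 13 and lower in 3, against 3.85% and 7.95% of all genes. The positive one was Fabp4, a fatty acid chaperone of adipocytes, macrophages and capillary endothelium. Its level was −3.43, −2.14 and −3.41 in tricresyl phosphate replicates 1, 2 and 3, against −4.38, −4.34 and −5.46 in corn oil replicates 1, 2 and 3. Every treated animal lay above every control. The difference was 1.73 ± 0.46 (SE), 3.32-fold with a 95% interval from 1.53 to 7.23 and an adjusted limma p of 0.811. It rests on 1 usable probe, which was well above background on every array but dim in the controls. Every corn oil level lay below −3.94, the lowest mean level of a gene outside the dimmest class described above. Under quantile normalization alone the Fabp4 difference was 1.73, and under normexp with quantile normalization it was 0.93. Fabp4 also belongs to the adipocyte list, where the other 4 measured markers had overlapping animals. Adipoq, the adipocyte hormone adiponectin, differed by 0.20 ± 0.23 (SE) and Cfd, the adipocyte protease adipsin, by 0.12 ± 0.28 (SE), while Adrb3, the beta-3 adrenergic receptor, differed by −0.09 ± 0.32 (SE) and Cidec by the −0.51 given above. The part of adipocytes in the Fabp4 level was not tested.

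Gk, glycerol kinase, was at 3.18, 3.09 and 3.05 with tricresyl phosphate and at 3.59, 3.33 and 3.398 with corn oil, and the groups did not overlap. Its difference was −0.33 ± 0.10 (SE) at an adjusted limma p of 0.811. Prkacb, a catalytic subunit of the kinase that activates Lipe, had a difference of −0.26 ± 0.08 (SE) without overlap of the groups, with the other probe at 0.03.

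All 16 genes of triacylglycerol synthesis were measured, and of these 0 rose and 0 fell, 9 had positive and 7 negative differences, and the median was 0.0005. None of the 16 had an unadjusted limma p under 0.05, 0 against 5.49% of all genes. The groups overlapped in all 16, where 11.8% of all genes had groups that did not. Gpat3, a glycerol-3-phosphate acyltransferase, differed by 0.19 ± 0.11 (SE) and Agpat4, an acyltransferase of the next step, by −0.20 ± 0.12 (SE). Mogat1, a monoacylglycerol acyltransferase, was well above background on 1 tricresyl phosphate array and 2 corn oil arrays, so its levels on the other arrays lay near background. Its difference was −0.65 ± 0.41 (SE), −0.19 without tricresyl phosphate replicate 2 and −0.09 under normexp with quantile normalization.

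Of 14 other hydrolases of neutral lipids 13 were measured, and of these 0 rose and 0 fell, 9 had positive and 4 negative differences, and the median was 0.02. An unadjusted p under 0.05 was found in 1 of the 13, against 5.49% of all genes. Without overlap, the treated animals were higher in 1 of the 13 and lower in 1, against 3.85% and 7.95% of all genes. The carboxylesterase gene Ces1f was at 6.33, 6.28 and 6.27 with tricresyl phosphate and at 6.45, 6.68 and 6.54 with corn oil, and the groups did not overlap. Its difference was −0.27 ± 0.09 (SE), with the other probe at −0.45 and an adjusted limma p of 0.811. Under quantile normalization it was −0.15. Ces1d, a carboxylesterase that hydrolyses triacylglycerol in rodent liver and fat, was at 4.49, 4.80 and 3.44 with tricresyl phosphate and at 3.87, 3.35 and 3.402 with corn oil. Tricresyl phosphate replicates 1 and 2 stood above all controls and replicate 3 among them, with a difference of 0.70 ± 0.37 (SE). It was 0.42 without tricresyl phosphate replicate 2 and 1.11 without tricresyl phosphate replicate 3. Transcripts of the Ces1 genes are alike in sequence, so a probe may bind more than one of them. Ddhd1, a phospholipase, differed by 0.16 ± 0.09 (SE), and its 3 probes ranged from −0.08 to 0.32.

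All 10 genes of cholesterol trafficking were measured, and of these 0 rose and 0 fell, 7 had positive and 3 negative differences, and the median was 0.07. An unadjusted p under 0.05 was found in 1 of the 10, against 5.49% of all genes. Groups that did not overlap were seen in 1 of the 10, against 11.8% of all genes. Lcat, the plasma enzyme that esterifies cholesterol on lipoproteins, was at −1.37, −1.49 and −1.58 with tricresyl phosphate and at −1.79, −1.80 and −1.79 with corn oil. Every treated animal lay above every control, with a difference of 0.31 ± 0.09 (SE) at an adjusted limma p of 0.811. Cyp27a1, a mitochondrial sterol hydroxylase, differed by 0.16 ± 0.10 (SE) and Stard3, a sterol carrier of late endosomes, by −0.17 ± 0.12 (SE), with its other probe at 0.11.

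**Figure D5:**
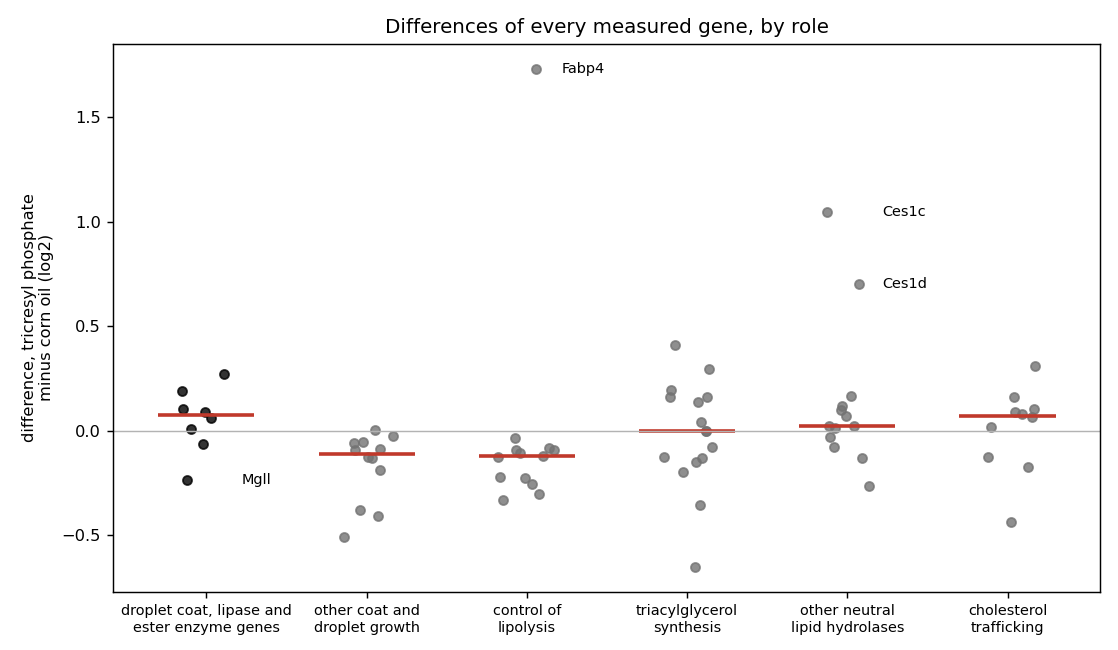
Difference between tricresyl phosphate and corn oil (vertical axis, log2) of each measured gene, by role (horizontal axis). Points are genes, spread sideways for legibility, and red lines are medians. The medians lie between −0.12 and 0.08, and Fabp4 at 1.73 lies above all other genes shown.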

How the data were processed

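Per the labels' protocols, total RNA was labelled with Cy3 and hybridised to 1-colour Agilent arrays. The authors quantified them with Agilent Feature Extraction (10.7 in the submitters' processing notes, 10.7.1.1 in the file headers). Deposited intensity values are linear processed signals after background subtraction within the array, with 0 or 1 flags for spots above background and outlier spots. The authors' value table holds the same intensity divided by 1 number per array near its 75th percentile.

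Per array, 41503 to 43823 of 61537 non-control probes were well above background, none was saturated, and 77 outlier spots in all were treated as missing. Precision is limited by the number of arrays. Accessions were matched to the RefSeq gene table of GRCr8, which named 28206 probes. The files use another build, so GRCr8 coordinates are given only for the RefSeq promoter windows printed. Probes well above background on at least 3 arrays were kept, and the brightest kept probe stood for a gene. The log2 values were tested two-sided in limma 3.58.1 (lmFit, eBayes; R 4.3.3), with p-values adjusted by Benjamini-Hochberg over all genes and called below 0.05. SE and intervals come from this fit. The same procedure was also run on data simulated from the means and SDs of the genes tested.

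All 10 genes and the 3 genes with the smallest p of each pathway list are named. Genes and lists were chosen with earlier results of these data known. Alternatives covered normalization, normexp background correction with an offset of 50 on median spot signals, filters, probes, outlier spots, variance models, slide, replicate number and single arrays. Slide 1 held corn oil replicate 1 only and slide 2 the other 5 arrays.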

Additional observations from a re-analysis of the deposited data

How the results depend on the processing

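No gene of the 10 and no single probe of them passed under any alternative run. Over all genes, normexp with quantile normalization and the variance model with an intensity trend gave 2 genes each, and leaving out 1 animal gave 0 to 1, where the comparison of all 6 gave 0 (limma, 1737 at an unadjusted p under 0.05). Lipe, Soat1 and Mgll kept their sign under all alternatives. The sign of Nceh1 turned with scaling to the array median (−0.012), normexp with quantile (−0.049) and when the 2 animals richest in hepatocyte markers were left out (−0.026), an alternative chosen after seeing the data. The last also turned Plin5 (−0.014) and Pnpla2 (0.050). Pnpla2 further turned with the mean of its probes (0.12), its other probe (0.30) and the slide as a block (0.019), which equals leaving out corn oil replicate 1. Leaving out 1 animal at a time gave −0.090 to 0.12 for Nceh1, −0.0094 to 0.12 for Plin2, −0.023 to 0.22 for Plin5, −0.23 to 0.16 for Pnpla2 and −0.043 to 0.17 for Abhd5. The cause of these turns was not tested. The replicate number as a block left every difference as it was and gave 0 genes past the threshold, of the 10 and of all, with a lowest adjusted limma p of 0.753. Deviations of same-numbered animals had correlations across genes of 0.0864, −0.0506 and −0.0438 for replicates 1, 2 and 3. Of these pairs only the replicates numbered 1 were each other's best match. The highest correlation, 0.12, was between tricresyl phosphate replicate 3 and corn oil replicate 2. The 15 pathway genes named kept their sign under the alternatives run for them, which did not take their other probes singly, and probes of Prkacb, Stard3 and Ddhd1 differed in sign. Naming probes by a gene name column was not run, because the scanner files used here hold accessions only. Soat2 lay too near background for a comparison.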

Other observations

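Of the 13 other hydrolases measured, 3 (Ces1e, Aadac and Lipa) had their 2 lowest levels in the animals that were lowest for Lipe and Pnpla2, against 8.66% of all genes, and the other 10 did not. The genes below were picked with the values in view. Ces1e, a carboxylesterase, was at 3.52, 3.68 and 2.92 in tricresyl phosphate replicates 1, 2 and 3, and at 3.83, 2.99 and 3.26 in corn oil replicates 1, 2 and 3. Aadac, an esterase of the endoplasmic reticulum, was at −0.45, −0.14 and −0.77 with tricresyl phosphate and at −0.15, −0.82 and −0.60 with corn oil. Both were lowest in tricresyl phosphate replicate 3 and corn oil replicate 2. Ces1c, a carboxylesterase of liver and plasma in rodents, ran the other way. Its levels were −3.41, −4.12 and −2.14 with tricresyl phosphate and −6.22, −1.95 and −4.63 with corn oil, highest in the same animals, and it was well above background on 5 of 6 arrays.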
